A study of Homo sapiens with 6 samples.

Results

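The 10 genes described here are the cytosolic heat shock chaperones HSPA1A, HSPA1B, HSPA8, DNAJB1, HSPH1, HSP90AA1, HSP90AB1 and HSPB1, the co-chaperone BAG3, and HSF1, the transcription factor named for the heat shock response. They were taken by gene name from a table of 58735 genes, and all 10 were found and passed the filter on low values, which kept 13578 genes. By the coordinates of the table (hg38) the chaperone genes lie as follows, with HSPA1A at chr6:31815464-31817946, HSPA1B at chr6:31827735-31830255, DNAJB1 at chr19:14514770-14529770, HSPH1 at chr13:31134974-31162388, HSPA8 at chr11:123057489-123063230, HSP90AA1 at chr14:102080738-102139699, HSP90AB1 at chr6:44246166-44253888, HSPB1 at chr7:76302544-76304295 and BAG3 at chr10:119651370-119677819, and HSF1 lies on chromosome 8. The table held 6 RNA-seq libraries labelled as BxPC-3, an established human pancreatic adenocarcinoma cell line. In 3 libraries the cells had received GSK3326595, an inhibitor of the arginine methyltransferase PRMT5 (the PRMT5i libraries), and 3 were the vehicle controls (the DMSO libraries). Neither dose nor duration of treatment is given in the sources used here. Since no label ties a library to its own culture, the p-values speak only for the spread among these libraries, which may be technical. The series' design text speaks of a knockdown of PRMT5, whereas the sample labels name the inhibitor, and the groups below follow the sample labels.

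Cytosolic chaperones bind unfolded or partly folded proteins and help them reach or regain their structure. HSP70 proteins take up client proteins in cycles of ATP use that are started by HSP40 proteins such as DNAJB1 and reset by nucleotide exchange factors such as HSPH1 and BAG3, and some clients are then passed to HSP90. In unstressed cells HSF1 is held inactive, in part by the chaperones themselves. When unfolded proteins build up, HSF1 forms trimers and binds heat shock elements, which are inverted repeats of the short unit nGAAn, in the promoters of chaperone genes. Many tumour cells keep high chaperone levels. Some family members are mainly inducible (HSPA1A, HSPA1B, DNAJB1, HSP90AA1) and others are mainly constitutive (HSPA8, HSP90AB1).

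Values are FPKM, which are reads per kilobase of listed gene length, scaled by a factor for each library. That factor was close to, but not equal to, the total reads. Levels of different genes depend on the listed lengths. These were 4849 bases for HSPA8, 5248 for HSP90AA1 and 2980 for HSP90AB1, against 2186, 3379 and 2582 bases in the transcript read for each. For HSPA1A both were 2483 bases. Orders and shares of level between genes therefore hold only on these lengths. Fold changes are log2 differences of FPKM + 1, PRMT5i over DMSO, and a gene is called higher or lower at a limma adjusted p under 0.05, adjusted by the Benjamini-Hochberg method over all 13578 genes tested. The libraries held 14087260 to 15724750 reads. PRMT5i replicate 2 stood apart. The correlation of its log2 values with those of the other PRMT5i libraries was 0.906 and 0.904, against 0.980 between those libraries and 0.980 to 0.983 among the DMSO libraries. Mitochondrial genes took 11.3% of its reads, against 5.84% and 6.03% in the other PRMT5i libraries and 4.70% to 5.01% in the DMSO libraries. Nuclear coding genes shorter than 1500 bases took 1.09% of its nuclear coding reads, against 2.27% and 2.36% in the other PRMT5i libraries and 2.44% to 2.61% in the DMSO libraries. Results that rest on this library are given with and without it. PRMT5, the target of the drug, had 13.4, 12.8 and 12.1 FPKM in the PRMT5i libraries, against 23.2, 24.6 and 26.2 FPKM in the DMSO libraries (log2 fold change −0.90, SE 0.11, adjusted p = 0.00493). Of 11 epithelial and pancreatic duct markers 5 reached 1 FPKM, among them KRT7, KRT8, KRT18 and MUC1, while KRT19, CEACAM6 and PDX1 had no reads in any library and EPCAM and CDH1 stayed under 0.5 FPKM. The near absence of these epithelial markers in all 6 libraries goes against the label of a pancreatic carcinoma line and puts it in doubt, and the identity of the cells was not tested. Of 10 markers of fibroblasts, blood and vessel cells only COL1A1 reached 1 FPKM, and the list summed to 5.69 to 10.6 FPKM in the PRMT5i libraries, against 4.51 to 4.65 FPKM in the DMSO libraries. Whether these differences have a part in the chaperone results was not tested.

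Promoter sequences of 9 of the 10 genes were available from RefSeq (build GRCh38.p14), as the 250 bases before each of 14 annotated gene starts. A short element, GAANNTTC or TTCNNGAA, holds a pair of inverted heat shock units, and a long element, GAANNTTCNNGAA on either strand, holds another unit besides. A long element always contains short ones. Of all 35116 windows of this length in the table, 11.6% held a short element and 0.441% a long one. Of the 14 windows of the 9 genes, 7 held a short element and 3 a long one, each in a different gene. The following sequences, 5′ to 3′ on the strand of the gene, are shown for the inducible genes HSPA1A, HSPA1B and DNAJB1, with the short element in capitals, and end where the first annotated exon begins.
HSPA1A, chr6:31815293-31815463, plus strand: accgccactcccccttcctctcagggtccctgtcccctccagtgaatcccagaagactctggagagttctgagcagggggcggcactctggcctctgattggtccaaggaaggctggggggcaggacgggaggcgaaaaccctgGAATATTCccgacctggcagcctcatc
HSPA1B, chr6:31827488-31827734, plus strand: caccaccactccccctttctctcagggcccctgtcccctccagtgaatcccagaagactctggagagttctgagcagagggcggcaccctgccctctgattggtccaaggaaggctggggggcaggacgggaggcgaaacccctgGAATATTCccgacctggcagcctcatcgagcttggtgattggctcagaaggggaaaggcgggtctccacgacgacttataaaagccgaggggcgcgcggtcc
DNAJB1, chr19:14518421-14518647, minus strand: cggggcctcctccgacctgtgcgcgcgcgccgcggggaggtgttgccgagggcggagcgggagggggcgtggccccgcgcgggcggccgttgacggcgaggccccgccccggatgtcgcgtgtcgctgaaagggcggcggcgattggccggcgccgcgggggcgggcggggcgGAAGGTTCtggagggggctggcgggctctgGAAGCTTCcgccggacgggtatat

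The windows of HSPA1A and HSPA1B were 93.6% identical over their 250 bases and carried the same short element, GAATATTC. DNAJB1 carried a pair of short elements before 1 of its 3 starts. The long elements lay before HSPA8, HSP90AA1 and HSP90AB1, and each is shown within 30 bases, with the long element in capitals.
HSPA8, first, chr11:123062345-123062374, minus strand: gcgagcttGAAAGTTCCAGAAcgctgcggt
HSPA8, second, chr11:123062170-123062199, minus strand: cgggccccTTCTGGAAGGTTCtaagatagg
HSP90AA1, chr14:102087111-102087140, minus strand: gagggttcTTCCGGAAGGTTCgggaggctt
HSP90AB1, first, chr6:44247770-44247799, plus strand: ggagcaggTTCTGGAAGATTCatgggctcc
HSP90AB1, second, chr6:44247823-44247852, plus strand: tgagattgTTCTGGAAGCTTCtggattctg

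The element before HSP90AA1 belongs to the downstream of its 2 starts and those before HSP90AB1 to the most downstream of its 3 starts. The only start of HSPA8 read here lies inside the listed gene, chr11:123057489-123063230 on the minus strand. All the long elements, and the short ones of DNAJB1, thus lie within the listed extent of their genes. HSPB1 had 1 short element, and the windows of HSPH1 and BAG3 had none. A match describes the letters of these windows only, and no binding was measured.

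The transcripts of most of these genes were lower in the PRMT5i libraries. Of the 10 genes, 7 were called lower and 0 higher in the limma fit, beside a background of 10.0% of all genes tested called lower and 7.18% called higher (17.2% in either direction). HSPA1A and HSPA1B, whose shared reads are described below, are both among the 7. The counts here are therefore not of 10 fully separable genes. At an unadjusted p under 0.05 the counts were 8 lower and 0 higher, where 20.0% of all genes were lower and 14.6% higher. Limma-voom on recovered reads called 7 lower and 0 higher, where it called 10.8% of all genes lower and 8.01% higher. The median log2 fold change of the 10 genes was −1.10, against −0.05 over all genes tested. In 8 of the 10 genes all 3 PRMT5i libraries lay below all 3 DMSO libraries, as they did for 26.7% of all genes tested, and in 0 of the 10 all lay above, as they did for 19.2%. Without PRMT5i replicate 2 the counts were 9 lower and 0 higher, where 23.1% of all genes were called lower and 17.5% higher (40.6% in either direction). Together the 10 genes took 0.484%, 0.594% and 0.459% of all reads in the PRMT5i libraries, against 0.854%, 0.867% and 0.830% in the DMSO libraries. Leaving out 1 library at a time gave 3 (without DMSO replicate 1) to 9 (without PRMT5i replicate 2) of the 10 genes called lower, and without DMSO replicate 1 the share of all genes called lower was 1.94%.

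**Figure D1:**
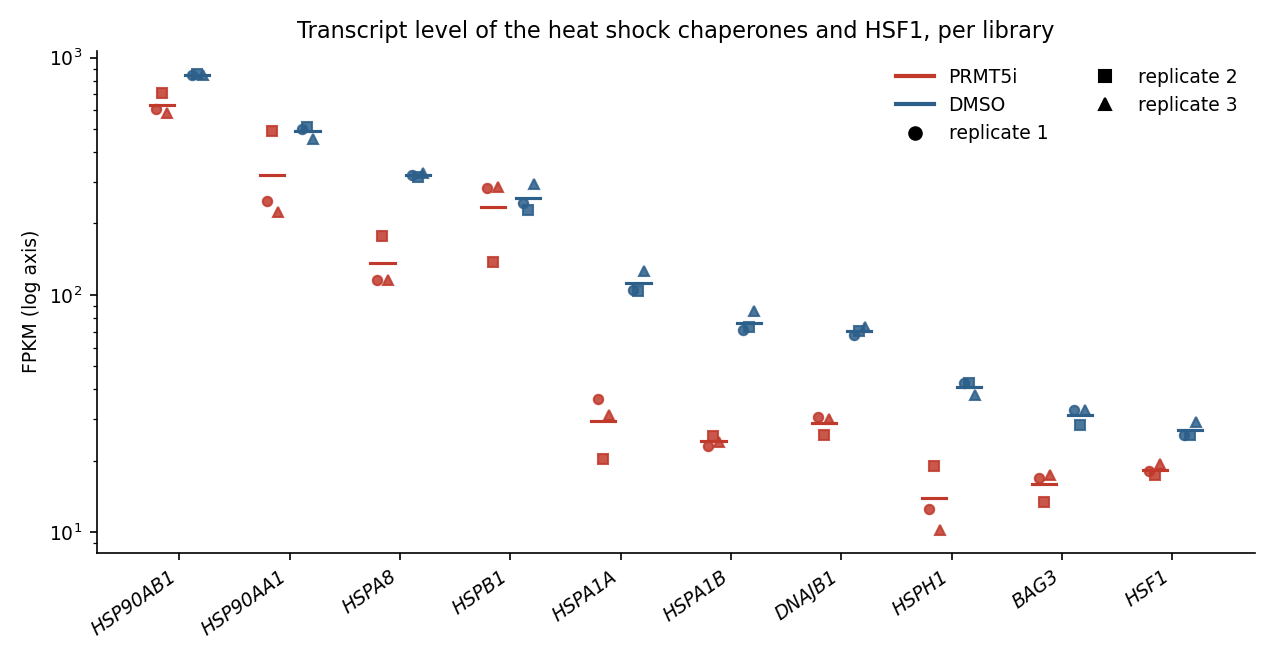
FPKM (log axis) of the 10 genes in each library, PRMT5i left of DMSO, with circles, squares and triangles for replicates 1, 2 and 3 and a line at each group mean. The groups overlap only for HSP90AA1 and HSPB1, where PRMT5i replicate 2 (square) lies at 489 and 138 FPKM, away from the other PRMT5i libraries.

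HSPA1A and HSPA1B, neighbouring genes on chromosome 6 that encode the inducible HSP70, had the lowest levels relative to DMSO of the 10. Without PRMT5i replicate 2 the lowest was HSPH1, at 27.8% of the DMSO mean, with HSPA1A at 30.2% and HSPA1B at 30.7%. HSPA1A had 36.3, 20.4 and 31.3 FPKM in the PRMT5i libraries, against 105, 104 and 127 FPKM in the DMSO libraries. Every PRMT5i library was far below every DMSO library, and the PRMT5i mean was 26.2% of the DMSO mean (log2 fold change −1.93, SE 0.22, limma adjusted p = 0.00493). HSPA1B had 23.0, 25.4 and 23.9 FPKM in the PRMT5i libraries, against 70.8, 73.1 and 85.3 FPKM in the DMSO libraries. Its PRMT5i libraries were close together, and their mean was 31.6% of the DMSO mean (log2 fold change −1.62, SE 0.12, limma adjusted p = 0.00147). Both genes kept their call without any 1 library, with adjusted p up to 0.0342 for HSPA1A and 0.0183 for HSPA1B.

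The division of reads within this pair is uncertain. The transcripts of HSPA1A and HSPA1B were 88.1% identical, and of all runs of 100 bases in HSPA1A 69.9% also occur letter for letter in HSPA1B, so a read from these stretches cannot be placed in one gene. HSPA1A held 61.2%, 44.6% and 56.7% of the summed FPKM of the pair in the PRMT5i libraries, against 59.7%, 58.6% and 59.7% in the DMSO libraries. Only PRMT5i replicate 2 had more HSPA1B than HSPA1A. The sum of the pair does not depend on how reads were divided between the genes. It does depend on whether reads matching both genes were counted, left out or counted in each, which is not given. The sum was 59.3, 45.8 and 55.2 FPKM in the PRMT5i libraries, against 176, 177 and 212 FPKM in the DMSO libraries, with no overlap. Entered as 1 gene it had a log2 fold change of −1.80 (limma adjusted p = 0.00222).

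HSPA8, the constitutive HSP70 of the cytosol, also called HSC70, was lower as well. It had 116, 176 and 116 FPKM in the PRMT5i libraries, against 319, 315 and 327 FPKM in the DMSO libraries. The groups did not overlap, PRMT5i replicate 2 was the highest of its group, and the PRMT5i mean was 42.5% of the DMSO mean. The log2 fold change was −1.26 (SE 0.19, limma adjusted p = 0.0103). The call was lost without DMSO replicates 1, 2 or 3, with adjusted p of 0.0574, 0.0568 and 0.0552, and the log2 fold change was −1.46 without PRMT5i replicate 2. HSPA8 shares no run of 100 bases with HSPA1A, and 17 processed copies of HSPA8 listed as pseudogenes held only 0.0791% as many reads. Within its gene lies SNORD14E, a small nucleolar RNA of 85 bases, chosen here after its values were seen. SNORD14E had 3, 0 and 5 reads in the PRMT5i libraries, against 37, 38 and 22 in the DMSO libraries. Those reads come to 0.105% of the reads of HSPA8, and the sources used here do not say how reads of a small RNA inside its host gene were counted.

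DNAJB1, the HSP40 protein that delivers clients to HSP70 and starts its ATP use, had 30.6, 25.8 and 29.9 FPKM in the PRMT5i libraries, against 67.6, 70.3 and 73.0 FPKM in the DMSO libraries. Both groups were tight and far apart, and the PRMT5i mean was 40.9% of the DMSO mean. The log2 fold change was −1.26 (SE 0.12, limma adjusted p = 0.00290), and the gene was called without any 1 library, with adjusted p up to 0.0281. The gene overlaps TECR, an enzyme gene of fatty acid elongation on the opposite strand. TECR had 71.1% as many reads as DNAJB1 and a log2 fold change of 0.09 (limma adjusted p = 0.665), and reads of the pair could be mixed, since strand use in the counting is not given.

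HSPH1, the HSP110 protein that resets HSP70 by nucleotide exchange, had 12.5, 19.0 and 10.2 FPKM in the PRMT5i libraries, against 42.4, 42.6 and 37.8 FPKM in the DMSO libraries. PRMT5i replicate 2 was again the highest of its group but still far below the DMSO libraries. The PRMT5i mean was 34.0% of the DMSO mean (log2 fold change −1.53, SE 0.22, limma adjusted p = 0.00853). The call was lost narrowly without DMSO replicate 1 or 2, with adjusted p of 0.0514 and 0.0504.

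BAG3, an exchange factor that links HSP70 to small heat shock proteins and to autophagy, had 16.9, 13.4 and 17.5 FPKM in the PRMT5i libraries, against 32.8, 28.2 and 32.6 FPKM in the DMSO libraries. The groups did not overlap and the PRMT5i mean was 51.1% of the DMSO mean. The log2 fold change was −0.93 (SE 0.14, limma adjusted p = 0.01001), and the call was lost without DMSO replicate 1 or 3, with adjusted p of 0.0613 and 0.0553.

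The HSP90 genes, the most abundant of the 10, were not called. HSP90AB1, the constitutive form, had 606, 708 and 584 FPKM in the PRMT5i libraries, against 841, 857 and 848 FPKM in the DMSO libraries. All PRMT5i libraries lay below all DMSO libraries, but the log2 fold change of −0.43 (95% interval −0.77 to −0.09) had a limma adjusted p of 0.0821. HSP90AA1, the inducible form, had 249, 489 and 223 FPKM in the PRMT5i libraries, against 501, 512 and 453 FPKM in the DMSO libraries. PRMT5i replicate 2 lay within the DMSO range, and the log2 fold change was −0.70 (95% interval −1.42 to 0.03, limma adjusted p = 0.157). Without PRMT5i replicate 2, both genes were called lower. The log2 fold change of HSP90AA1 was then −1.04 (limma adjusted p = 0.000635), with a PRMT5i mean at 48.4% of the DMSO mean, and that of HSP90AB1 was −0.51 (limma adjusted p = 0.00111), at 70.1%. The HSP90AA1 and HSP90AB1 transcripts share no run of 100 bases, and the pseudogenes of each held at most 0.412% as many reads. WDR20, which overlaps HSP90AA1 on the opposite strand, had 0.919% as many reads.

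HSPB1, the small heat shock protein HSP27, which holds unfolded proteins without using ATP, was not called in the limma fit, nor in any fit that left out 1 library. It had 283, 138 and 284 FPKM in the PRMT5i libraries, against 244, 229 and 293 FPKM in the DMSO libraries. PRMT5i replicate 2 was the lowest of all libraries and the other PRMT5i libraries lay within the DMSO range. The log2 fold change was −0.19 (95% interval −0.92 to 0.54, limma adjusted p = 0.694), an interval that includes changes as large as that of HSF1 as well as no change. Without PRMT5i replicate 2 the sign turned, to 0.16 (limma adjusted p = 0.289).

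HSF1 had 18.0, 17.5 and 19.5 FPKM in the PRMT5i libraries, against 25.8, 25.8 and 29.1 FPKM in the DMSO libraries. The groups did not overlap, and the PRMT5i mean was 68.1% of the DMSO mean. The log2 fold change was −0.53 (SE 0.11, limma adjusted p = 0.0241), the smallest in size of the 7 that were called. The call was lost without PRMT5i replicate 1 or 3 (adjusted p of 0.0770 and 0.0530) and without DMSO replicate 1, 2 or 3 (0.102, 0.0962 and 0.0995), and after quantile normalization (0.0593). It was kept without PRMT5i replicate 2, with a log2 fold change of −0.50 (adjusted p = 0.00579). DGAT1, a triglyceride synthesis gene on the opposite strand of the same locus, had 23.4% as many reads and a log2 fold change of −0.23 (limma adjusted p = 0.551). The transcript level says nothing of how much HSF1 protein was active.

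**Figure D2:**
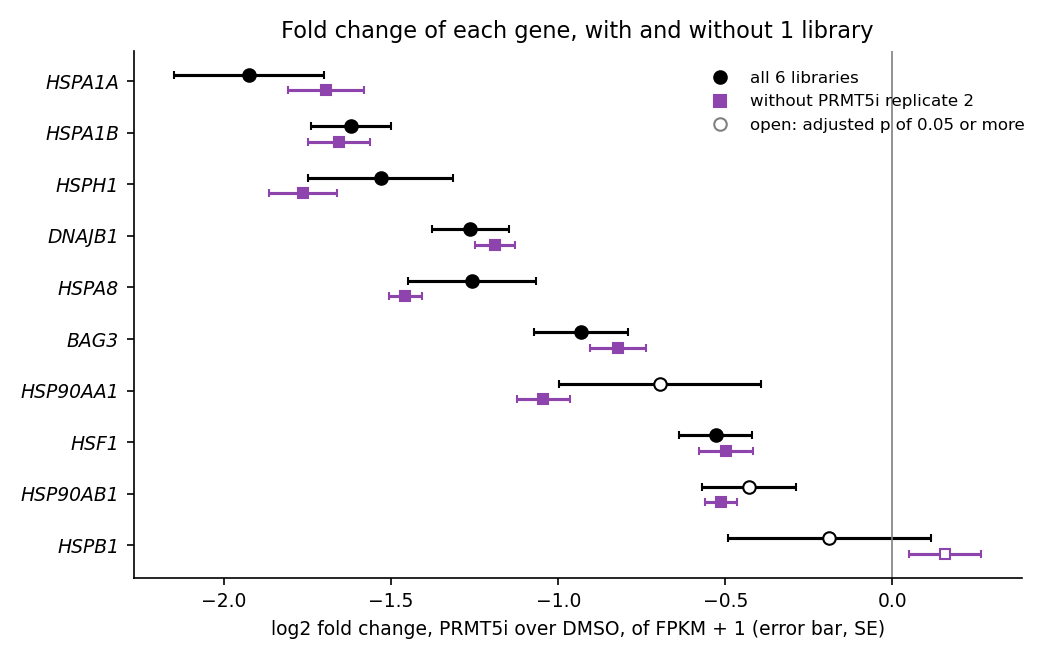
Log2 fold change of FPKM + 1, PRMT5i over DMSO, for each of the 10 genes with its standard error, from all 6 libraries (black circles) and without PRMT5i replicate 2 (purple squares), open symbols marking an adjusted p of 0.05 or more. HSP90AA1 and HSP90AB1 are called only without PRMT5i replicate 2, and HSPB1 lies at −0.19 and 0.16.

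By FPKM on the listed gene lengths, the order of the genes was similar in both groups. In the PRMT5i libraries the means ran HSP90AB1 (632 FPKM), HSP90AA1 (320.5), HSPB1 (235), HSPA8 (136), HSPA1A (29.3), DNAJB1 (28.8), HSPA1B (24.1), HSF1 (18.3), BAG3 (15.9) and HSPH1 (13.9). In the DMSO libraries they ran HSP90AB1 (849 FPKM), HSP90AA1 (489), HSPA8 (320.4), HSPB1 (255), HSPA1A (112), HSPA1B (76.4), DNAJB1 (70.3), HSPH1 (40.9), BAG3 (31.2) and HSF1 (26.9). In the PRMT5i libraries the ranges of HSP90AA1 and HSPB1 overlapped, as did those of HSPB1 and HSPA8, of HSPA1A and DNAJB1, and of BAG3 and HSPH1, so these neighbours do not differ beyond their spread. All 4 overlaps rested on PRMT5i replicate 2. Without it, HSPB1 (283 and 284 FPKM) lay above HSP90AA1 (249 and 223 FPKM) and above HSPA8 (116 in both), HSPA1A (36.3 and 31.3 FPKM) above DNAJB1 (30.6 and 29.9 FPKM), and BAG3 (16.9 and 17.5 FPKM) above HSPH1 (12.5 and 10.2 FPKM). The lowest DNAJB1 library (25.8 FPKM) was just above the highest HSPA1B library (25.4 FPKM), and the lowest HSF1 library (17.49 FPKM) just above the highest BAG3 library (17.48 FPKM). In the DMSO libraries only HSPA1B and DNAJB1, and BAG3 and HSF1, overlapped. Summed over the 10 genes, the level was 1392, 1632 and 1339 FPKM in the PRMT5i libraries, against 2251, 2255 and 2306 FPKM in the DMSO libraries. The HSP90 genes made up 61.4%, 73.3% and 60.3% of that sum in the PRMT5i libraries, against 59.6%, 60.7% and 56.4% in the DMSO libraries.

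Ratios between inducible and constitutive genes were compared over samples with exact two-sided permutation tests, in which 3 against 3 libraries cannot give a p below 0.1, with p-values adjusted over the 3 ratios. The log2 ratio of summed HSPA1A and HSPA1B to HSPA8 was −0.96, −1.92 and −1.06 in the PRMT5i libraries, against −0.86, −0.83 and −0.62 in the DMSO libraries. The groups did not overlap, and the difference was −0.54 (exact p = 0.1, adjusted p = 0.3), or −0.24 without PRMT5i replicate 2. The log2 ratio of HSP90AA1 to HSP90AB1 was −1.28, −0.53 and −1.38 in the PRMT5i libraries, against −0.75, −0.74 and −0.90 in the DMSO libraries. PRMT5i replicate 2 was the highest of all libraries and the other PRMT5i libraries were the lowest. The difference was −0.27 (exact p = 0.4, adjusted p = 0.6), and −0.53 without that library. The log2 ratio of DNAJB1 to HSPA8 was −1.89, −2.73 and −1.92 in the PRMT5i libraries, against −2.22, −2.15 and −2.15 in the DMSO libraries. The difference was −0.01 (exact p = 1, adjusted p = 1), and its sign turned without PRMT5i replicate 2, to 0.27, and without DMSO replicate 2 or 3, to 0.01 in each case. None of the 3 ratios passed a test.

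**Figure D3:**
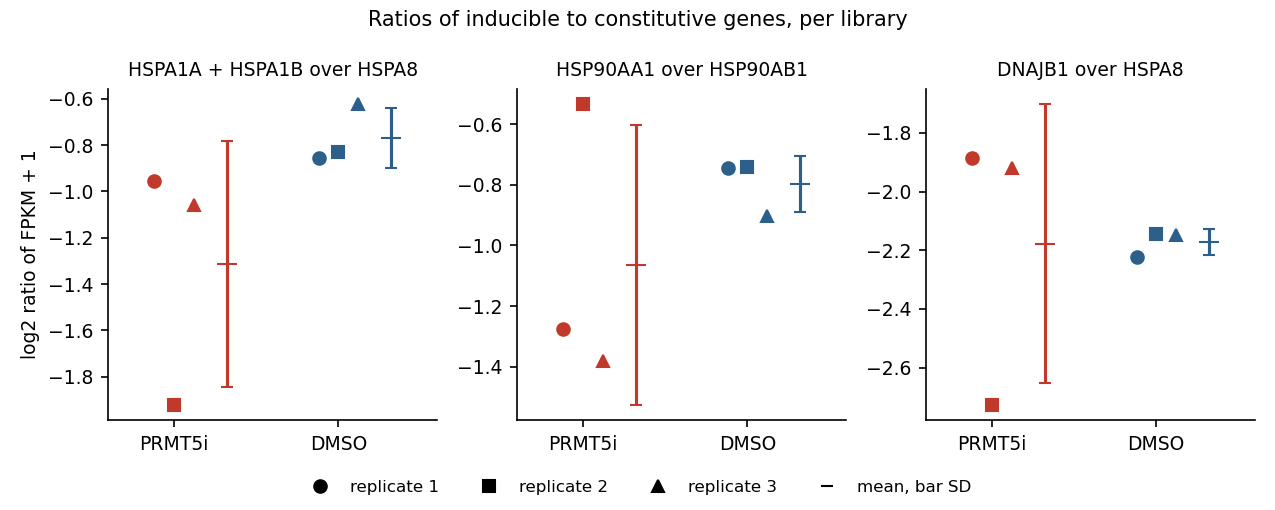
Log2 ratio of FPKM + 1 in each library, PRMT5i left of DMSO, for summed HSPA1A and HSPA1B over HSPA8, HSP90AA1 over HSP90AB1, and DNAJB1 over HSPA8, with the group mean and SD beside the points. PRMT5i replicate 2 (square) is the lowest library in the first and last panel, at −1.92 and −2.73, and the highest in the middle one, at −0.53.

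PRMT5i replicate 2 departed from the other PRMT5i libraries by a different amount for each gene. Its log2 level minus the mean of replicates 1 and 3 was −1.04 for HSPB1, −0.69 for HSPA1A, −0.34 for BAG3, −0.22 for DNAJB1 and −0.09 for HSF1. It was 0.11 for HSPA1B, 0.25 for HSP90AB1, 0.60 for HSPA8, 0.70 for HSPH1 and 1.05 for HSP90AA1. The shortest of the 10 genes, HSPB1 with a listed length of 1634 bases, had the lowest value, and the 3 highest values belonged to HSPA8 (4849 bases), HSPH1 (8390 bases) and HSP90AA1 (5248 bases). HSF1, with 5307 bases, was near 0. PRMT5i replicates 1 and 3 differed from each other by −0.10 to 0.27 over the same genes. With a smooth trend on gene length removed from each library, 7 of the 10 genes were called lower and 0 higher, where 10.6% of all genes were called lower and 10.3% higher.

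**Figure D4:**
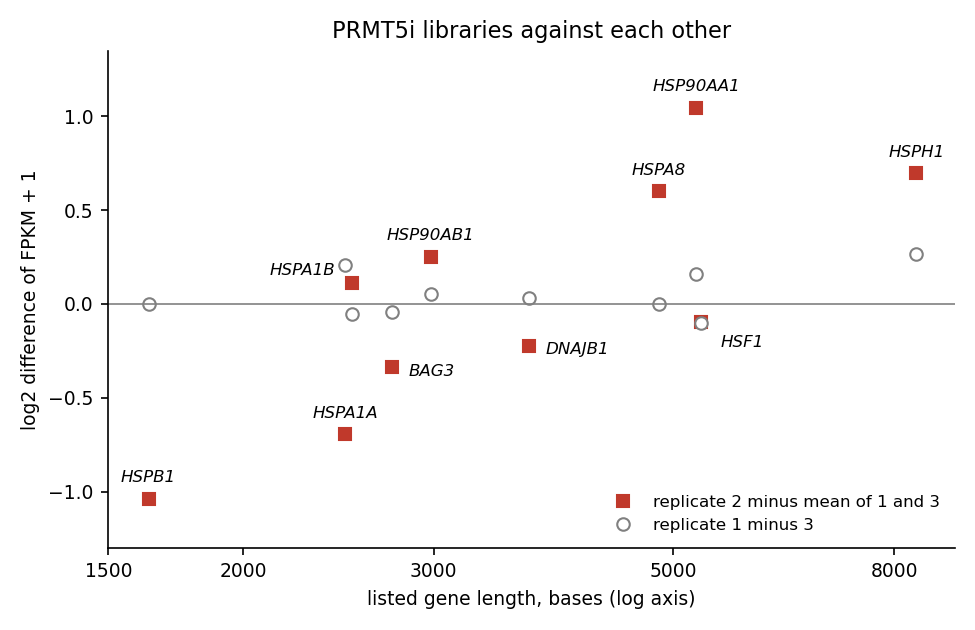
Log2 difference of FPKM + 1 between PRMT5i libraries for the 10 genes, by listed gene length in bases (log axis), with squares for replicate 2 minus the mean of replicates 1 and 3 and open circles for replicate 1 minus 3. The squares range from −1.04 (HSPB1) to 1.05 (HSP90AA1) and the circles from −0.10 to 0.27.

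The genes around this set were read from 10 lists of related chaperones, co-chaperones and targets, each described by counts and the median log2 fold change beside that of all genes tested (−0.05, with 10.0% called lower and 7.18% called higher, or 20.0% and 14.6% at an unadjusted p under 0.05 and 10.8% and 8.01% by limma-voom). With the filter at 5 FPKM, the median over 7382 genes was −0.14, with 1059 called lower and 446 higher. Abundant genes thus had a lower median than all genes tested. The lists, like the 10 genes, were chosen with earlier results of these data known. Their counts and the order of their medians are descriptions and not independent support. Counted once each, 92 other genes of these lists passed the filter. Of them 28 were called lower and 3 higher, with a median of −0.36, and without PRMT5i replicate 2 the counts were 59 lower and 5 higher, where 23.1% and 17.5% of all genes were called. Of the 19 called genes named below by the rule, all were called without PRMT5i replicate 2 as well, whereas 18 lost their call without at least 1 DMSO library and only HSPB7 kept it without each library in turn. Calls also fell over all 13578 genes. With all libraries 1364 were called lower, and without PRMT5i replicates 1 and 3 the counts were 651 and 794. Without DMSO replicates 1, 2 and 3 they were 264, 285 and 317. They were 1053 after quantile normalization and 872 with the replicate block. A loss of calls in these fits is thus not particular to the lists.

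The list of other heat-inducible HSF1 target genes had the lowest median. Of its 17 genes tested, 13 were called lower and 0 higher (14 and 0 at an unadjusted p under 0.05 and by limma-voom), with a median of −0.89. Of the 17, 11 also stand in another list below. The count was 14 without PRMT5i replicate 2, 11 and 10 without PRMT5i replicates 1 and 3, and 1, 0 and 3 without DMSO replicates 1, 2 and 3. DNAJA1, an HSP40 partner of HSP70, averaged 29.8 ± 3.22 FPKM in the PRMT5i libraries and 56.0 ± 1.62 FPKM in the DMSO libraries (SD, n = 3 each; log2 fold change −0.89, limma adjusted p = 0.00719). STIP1, also called HOP, which joins HSP70 to HSP90, averaged 56.7 ± 4.205 FPKM in the PRMT5i libraries and 100.01 ± 1.88 FPKM in the DMSO libraries (−0.81, adjusted p = 0.00734). HSPA6, an HSP70 expressed mainly under strong stress, had 0.232, 0 and 0.155 FPKM in the PRMT5i libraries, against 1.29, 1.5 and 1.20 FPKM in the DMSO libraries (−1.05, adjusted p = 0.00856). It passed the filter through the DMSO libraries alone, so it could only differ downward. Its log2 fold change depends on the setting and was −1.56 and −2.80 with pseudocounts of 0.5 and 0.1, −2.003 after TPM scaling and −3.86 by limma-voom. Its call was lost without DMSO replicate 2 (adjusted p = 0.0506). The genes with the lowest fold changes in this list, chosen after their values were seen, were PPP1R15A, the stress-induced phosphatase subunit GADD34 (−1.91, adjusted p = 0.0158), and IER5, an immediate early gene known to act on HSF1 (−1.69, adjusted p = 0.0149). HSPD1 and HSPA4L, also chosen after their values were seen, had log2 fold changes of 0.05 and 0.27 and were not called. Without PRMT5i replicate 2 these were −0.18 and 0.03, again not called.

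Among co-chaperones of HSP90, 7 of 14 genes tested were called lower and 0 higher (9 and 0 at an unadjusted p under 0.05, 8 and 0 by limma-voom), with a median of −0.63. Besides STIP1 they included PPID, a prolyl isomerase of HSP90 complexes, with 7.08 ± 0.767 FPKM in the PRMT5i libraries and 13.1 ± 1.04 FPKM in the DMSO libraries (SD, n = 3 each; log2 fold change −0.80, limma adjusted p = 0.0103). FKBP4, an HSP90 partner of steroid receptors, averaged 31.0 ± 0.365 FPKM in the PRMT5i libraries and 49.3 ± 2.07 FPKM in the DMSO libraries (−0.65, adjusted p = 0.0106). Without PRMT5i replicate 2 the count was 10, and without DMSO replicate 1 or 2 it was 0.

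Of 15 cytosolic HSP40 co-chaperones tested 3 were called lower and 0 higher (6 and 0 at an unadjusted p under 0.05, 3 and 0 by limma-voom), with a median of −0.28. They were DNAJA1, DNAJA4 (log2 fold change −0.70, limma adjusted p = 0.0103) and DNAJC2, a partner of HSP70 at the ribosome (−0.78, adjusted p = 0.0184). The count was 10 without PRMT5i replicate 2 and 0 without DMSO replicate 1 or 2. Of 7 HSP70 and HSP110 relatives tested, the 1 called lower was HSPA6, which entered the test through the DMSO libraries alone, and 0 were called higher (2 and 0 at an unadjusted p under 0.05, 1 and 0 by limma-voom). The median was −0.15, and 3 were called lower without PRMT5i replicate 2.

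Among small heat shock protein relatives, and in a list of exchange factors, BAG proteins and other HSP70 cofactors, 1 gene was called lower and 1 higher. With 3 and 8 genes tested, these counts are near the shares over all genes or too few to compare with them. Of 3 small heat shock protein relatives tested, HSPB7, known mainly from heart and skeletal muscle, was higher, with 18.4, 15.6 and 20.2 FPKM in the PRMT5i libraries, against 7.11, 6.48 and 7.43 FPKM in the DMSO libraries (log2 fold change 1.25, limma adjusted p = 0.00366). All 3 PRMT5i libraries lay above all DMSO libraries, and the call held without any 1 library. HSPB8, which works with BAG3, was lower, with 16.8, 13.9 and 18.0 FPKM in the PRMT5i libraries, against 27.1, 26.7 and 27.4 FPKM in the DMSO libraries (−0.71, adjusted p = 0.0151). Of 8 exchange factors, BAG proteins and other HSP70 cofactors tested, HSPBP1, an exchange factor, was lower (−0.69, adjusted p = 0.0193). ST13, also called HIP, is not an exchange factor but stabilises the HSP70 complex with its client, and was higher. ST13 averaged 60.1 ± 5.39 FPKM in the PRMT5i libraries and 43.4 ± 2.2 FPKM in the DMSO libraries (SD, n = 3 each; 0.46, adjusted p = 0.0444). The medians of these lists, −0.02 and −0.05, turned positive after quantile normalization (0.07 and 0.06) and with the length trend removed (0.12 and 0.05). The median of −0.02 is the value of HSPB11, the middle of 3 genes, named here for that reason only.

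Of 4 further genes of heat shock factors and HSF1 binding proteins tested 0 were called in either direction in the limma fit or by limma-voom, and 1 was lower at an unadjusted p under 0.05, with a median of −0.40. Without PRMT5i replicate 2 the count was 2 lower. HSBP1L1, the most abundant of them, averaged 9.95 ± 3.04 FPKM in the PRMT5i libraries and 13.5 ± 0.309 FPKM in the DMSO libraries (SD, n = 3 each; log2 fold change −0.45, limma adjusted p = 0.201). Those called without PRMT5i replicate 2, chosen after their values were seen, were HSF2, another heat shock factor, and HSBP1, which binds HSF1. HSF2 had a log2 fold change of −0.34 (adjusted p = 0.138), and −0.44 (adjusted p = 0.0206) without that library. HSBP1 had −0.55 (adjusted p = 0.174), and −0.25 (adjusted p = 0.0238) without it.

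Chaperone systems outside the HSP70 and HSP90 families were read in the same way. Of 14 genes of the cytosolic chaperonin, which folds actin and tubulin, and of prefoldin, which feeds it, 3 were called lower and 0 higher (8 and 0 at an unadjusted p under 0.05, 3 and 0 by limma-voom), with a median of −0.49. They were the chaperonin subunits CCT5 (log2 fold change −0.73, limma adjusted p = 0.0136) and TCP1 (−0.61, adjusted p = 0.0244) and the prefoldin subunit PFDN4 (−0.55, adjusted p = 0.0488). The count was 11 without PRMT5i replicate 2 and 0 without DMSO replicate 1, 2 or 3, without PRMT5i replicate 1, and after quantile normalization. Of 12 chaperones of the endoplasmic reticulum 7 were called lower and 0 higher (9 and 0 at an unadjusted p under 0.05, 8 and 0 by limma-voom), with a median of −0.48. They included HSPA5, the HSP70 of that compartment, at 237 ± 30.2 FPKM in the PRMT5i libraries and 387 ± 10.1 FPKM in the DMSO libraries (SD, n = 3 each; −0.71, adjusted p = 0.0216), CALR (−0.70, adjusted p = 0.0180) and DNAJB11 (−0.53, adjusted p = 0.0314). That count was 11 without PRMT5i replicate 2, 2 after quantile normalization, and 0 without DMSO replicate 1, 2 or 3 or without PRMT5i replicate 1. Of 9 mitochondrial chaperones 1 was called in each direction, HSPE1, the partner of HSPD1, lower (−1.17, adjusted p = 0.0262) and HSCB, a co-chaperone of iron-sulfur cluster assembly, higher (0.75, adjusted p = 0.0245). The median of the mitochondrial list was −0.28. Its share called lower is near that of all genes, and the counts were 4 lower and 2 higher without PRMT5i replicate 2. The count of lower calls was 0 without PRMT5i replicate 3, without any 1 DMSO library, with the replicate block and with no filter on low values.

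**Figure D5:**
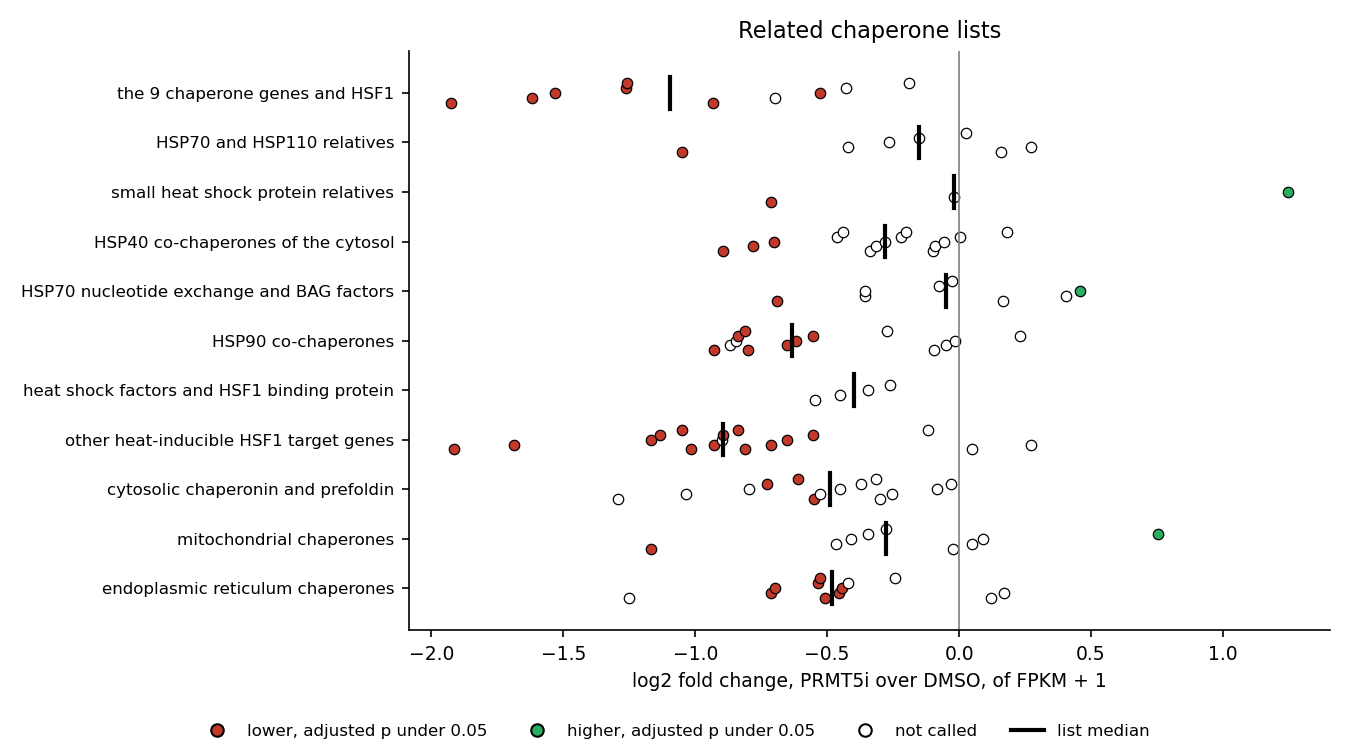
Log2 fold change of FPKM + 1, PRMT5i over DMSO, of each tested gene in the set of 10 and in 10 related lists, red for genes called lower, green for called higher and open for not called, with a bar at each list median. The medians run from −1.10 for the 10 genes and −0.89 for other HSF1 target genes to −0.02 for small heat shock protein relatives. This last is the value of HSPB11, between HSPB8 at −0.71 and HSPB7 at 1.25.

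Likeness to the mean profile of HSPA1A, HSPA1B, DNAJB1 and HSPH1, the 4 genes of the set with the lowest fold changes, was measured over the 6 libraries as the root mean square difference of log2(FPKM + 1), each library minus the DMSO mean. Among the tested genes outside the set of 10, the nearest were GPRC5B, LTF, OTUD1, IGFN1 and HES1, with differences of 0.0747, 0.0895, 0.0911, 0.0922 and 0.0924 in that order. Of the 4 genes that make up the mean, HSPA1B was at 0.0838, DNAJB1 at 0.238, HSPH1 at 0.265 and HSPA1A at 0.334. The mean is thus close to the profile of HSPA1B only. In PRMT5i replicate 2 HSPA1A was at −2.39 and HSPH1 at −1.07, on either side of the mean at −1.60. OTUD1, a deubiquitinase, had 5.89, 5.095 and 5.96 FPKM in the PRMT5i libraries, against 19.9, 19.98 and 20.5 FPKM in the DMSO libraries. HES1, a transcription factor known as a Notch target, had 3.85, 3.55 and 3.42 FPKM in the PRMT5i libraries, against 14.4, 12.4 and 14.6 FPKM in the DMSO libraries. GPRC5B, LTF and IGFN1 were at or below 0.220 FPKM in every PRMT5i library and at 1.69 to 2.54 FPKM in the DMSO libraries, so they passed the filter through the DMSO libraries alone. Their FPKM differ between the groups by a larger factor than those of the 4 chaperone genes, and their nearness on this scale comes from the added 1, so it does not show a shared profile in FPKM.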

How the data were processed

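Libraries from total RNA of 6 samples were directional, per the labels' protocols, and the submitters' processing notes name the build hg38. Aligner, counter, annotation release and strand use in counting were not given in the sources used here. What the authors deposited were FPKM values of 58735 genes with listed gene lengths, and FPKM times length gave whole reads within 0.01 reads for 100% of the values above 0. Groups and replicate numbers come from the sample titles. No replicate pair agreed within sampling noise (chi-square per degree of freedom 2.16 to 66.4), so all libraries were kept as separate replicates.

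The filter asked for 1 FPKM in 3 or more libraries, and tests ran on log2(FPKM + 1) with limma 3.58.1 in R 4.3.3 (mean-variance trend, two-sided, no block, Benjamini-Hochberg adjustment, threshold 0.05). On simulated data of 13245 genes for the comparison of PRMT5i with DMSO, of the changed genes the fit called 24.6% at 1.5-fold, 72.1% at 2-fold and 93.4% at 4-fold, and 6 of its 123 calls were false. The simulation gave all libraries the same spread, and none stood apart as PRMT5i replicate 2 did. These shares therefore do not carry over to the measured libraries. The ratios between genes were tested by exact permutation over samples. Alternatives were pseudocounts of 0.1 and 0.5, no filter or 5 FPKM, quantile and TPM scaling, other limma settings, limma-voom on recovered reads, removal of a length trend, a replicate block, HSPA1A and HSPA1B summed, and leaving out each library.

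The 10 genes and all lists were chosen with earlier results of these data known. Besides them, the text names up to 3 called genes per list taken by adjusted p (the most abundant gene in a list with no call), PRMT5, the cell markers and the 5 genes nearest in profile. Transcripts for sequence identity and exon positions came from GENCODE 29, and promoter windows from RefSeq. HSF1 has no promoter sequence here.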

Additional observations from a re-analysis of the deposited data

How the results depend on the processing

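Over all genes 2339 were called (1364 lower, 975 higher). The count was 1533 with no filter on low values, 1505 at 5 FPKM and 1478 with the replicate block, and 478 to 5513 when 1 library at a time was left out, the highest without PRMT5i replicate 2 and the lowest without DMSO replicate 1. Limma-voom on the recovered reads called 2554. The share of calls that were lower was 58.3%, and 70.4% at 5 FPKM (1059 lower, 446 higher). It was 50.4% after quantile normalization and 50.8% with the length trend removed. Members of the set called lower ranged from 3 to 9 when 1 library was left out, and 3 genes (HSPA1A, HSPA1B and DNAJB1) were called lower in every setting. With 1 library left out, the log2 fold change of HSPB1 ranged from −0.36 to 0.16 (without PRMT5i replicate 2). The log2 ratio of DNAJB1 to HSPA8 differed by −0.15 to 0.27 (without PRMT5i replicate 2), and by 0.01 without DMSO replicate 2 or 3. The cause of these shifts was not tested. The replicate numbers are not known to pair the libraries. Deviations of same-numbered libraries correlated at −0.02, 0.16 and 0.25, and PRMT5i replicate 1 correlated best with DMSO replicate 3. With the replicate block 7 of the 10 genes were called lower. The differences in the ratios, −0.54, −0.27 and −0.01, cannot change with a block in this balanced design, so they are no check. Depth does not limit the 10 genes, which had 493 or more reads in every library. With 3 libraries a group, the simulated fit missed most 1.5-fold changes even though its libraries all had the same spread.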
